A study of Mus musculus with 6 samples.

Results

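The insulin-like growth factor (IGF) genes described here are 10 rows of a mouse gene count table. They are the ligand gene Igf1, the receptor genes Igf1r and Insr, the binding protein genes Igfbp2, Igfbp3, Igfbp4, Igfbp5, Igfbp6 and Igfbp7, and the glypican gene Gpc3. They were taken by gene symbol from the 55401 gene rows of the table, and all 10 were found and passed the filter on low counts. RNA was sequenced in bulk from the cerebral cortex of mouse embryos at embryonic day 18. The knockout embryos had both copies of Csmd3 disrupted (Csmd3-/-, 3 libraries), and they were compared with wild-type embryos (3 libraries). All were of the C57BL/6 strain, came from matings of heterozygous parents and had no stated treatment. Which part of Csmd3 was removed is not stated in the labels used here. The labels do not say that each library came from a separate embryo, so the p-values measure the spread between these libraries, which may be technical.

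IGF1 and IGF2 are secreted growth factors that signal mainly through the receptor tyrosine kinase IGF1R, and the insulin receptor (Insr) can bind IGF2 as well as insulin. The IGF binding proteins hold IGFs in the extracellular fluid and can limit or prolong their action. GPC3 is a heparan sulfate proteoglycan tethered to the cell surface, and its loss causes an overgrowth syndrome in humans. In the embryonic brain IGF2 is known as a product of the meninges, the vessels and the choroid plexus, and as a growth signal for cortical progenitors through IGF1R.

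The libraries held between 54244288 and 68269607 deposited counts each, and 19844 genes entered the test. The targeted gene Csmd3 had 675, 653 and 543 deposited counts in knockout libraries 1, 2 and 3, against 992, 765 and 867 in wild-type libraries 1, 2 and 3. Its log2 fold change was -0.59 in edgeR's quasi-likelihood test (SE 0.13, Benjamini-Hochberg adjusted p = 0.0233), so most of its signal remained. Csmd3 missed the threshold in 4 of the 6 fits that left out 1 library, those lacking wild-type library 1 or a knockout library (adjusted p up to 0.0988), so it checks the labels weakly. For the tissue label, 12 listed markers of cortical projection neurons summed to 4007 to 4546 CPM (counts scaled to library size by TMM, trimmed mean of M values) in knockout and 3660 to 4179 CPM in wild type, and none was at 0 in a group. All 3 knockout libraries lay above wild type in choroid plexus markers, and knockout library 3 by far the most. The 10 such markers summed to 33.4, 64.2 and 519 CPM in knockout libraries 1, 2 and 3. In the wild-type libraries they summed to 6.67 to 7.96 CPM, and all of these had Folr1 at 0. The fit without knockout libraries 2 and 3, given below, keeps knockout library 1, which was also raised in these markers.

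Of the 10 IGF system genes, 2 rose in knockout cortex and 0 fell. They were Gpc3, at 11.1 times the wild-type level (95% interval 8.26 to 15.04), and Igfbp4, at 1.80 times (1.56 to 2.07). The other 8, among them both receptor genes and 5 of the 6 binding protein genes, did not pass an adjusted p of 0.05. By the same rule 5.21% of all tested genes were higher and 2.53% lower, and 7.74% were called in either direction. At an unadjusted p under 0.05 the test gave 6 of the 10 as higher and 0 as lower, against 22.2% of all tested genes in either direction, and DESeq2 gave 4 as higher and 0 as lower, where it called 7.89% of all genes higher and 4.97% lower. The median log2 fold change of the 10 was 0.30, beside 0.002 over all tested genes. The 10 were chosen with earlier results of these data known. These comparisons therefore describe the list and do not test it as a set.

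For the 2 genes that rose, the bases just before the transcription start are shown, because these are the promoters next to the measured change. Each is the 250 bases before the start in RefSeq (build GRCm38.p6, which is mm10), read 5′ to 3′ on the gene's strand. Capitals mark matches, on either strand, to the GC box core GGGCGG or the TATA box core TATAAA. The Gpc3 stretch is chrX:52613975-52614224, minus strand, and the Igfbp4 stretch is chr11:99040994-99041243, plus strand.
Gpc3: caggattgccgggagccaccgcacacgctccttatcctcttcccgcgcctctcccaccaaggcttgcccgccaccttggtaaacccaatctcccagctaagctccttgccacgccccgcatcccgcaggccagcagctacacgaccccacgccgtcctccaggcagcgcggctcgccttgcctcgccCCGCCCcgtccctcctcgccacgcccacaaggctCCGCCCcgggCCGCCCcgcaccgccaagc
Igfbp4: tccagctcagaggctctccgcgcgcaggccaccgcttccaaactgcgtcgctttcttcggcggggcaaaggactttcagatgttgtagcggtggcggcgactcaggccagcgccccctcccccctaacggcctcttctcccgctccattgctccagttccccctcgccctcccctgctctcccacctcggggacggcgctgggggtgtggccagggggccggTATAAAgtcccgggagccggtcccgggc
The Gpc3 stretch held 3 GC box cores, all in reverse orientation, and 71.6% of its bases were G or C. The Igfbp4 stretch held 1 TATA box core, which begins 28 bases before the start, and 69.2% of its bases were G or C. In windows of 300 bases, from 250 before to 50 after the start, GGGCGG stood on either strand in 35.7% and TATAAA in 13.6% of 32851 mouse windows. Of 10 windows found for 9 of the 10 genes (all but Insr), 4 held GGGCGG (Gpc3, Igf1r, Igfbp2 and Igfbp7) and 2 held TATAAA (Igfbp4 and Igfbp6). The forkhead core TGTTTAC, searched because FOXO factors act downstream of insulin and IGF receptors, stood in 0 of those 10 windows and in 3.65% of all windows. A match is a string of letters and was not measured as a binding site.

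**Figure D1:**
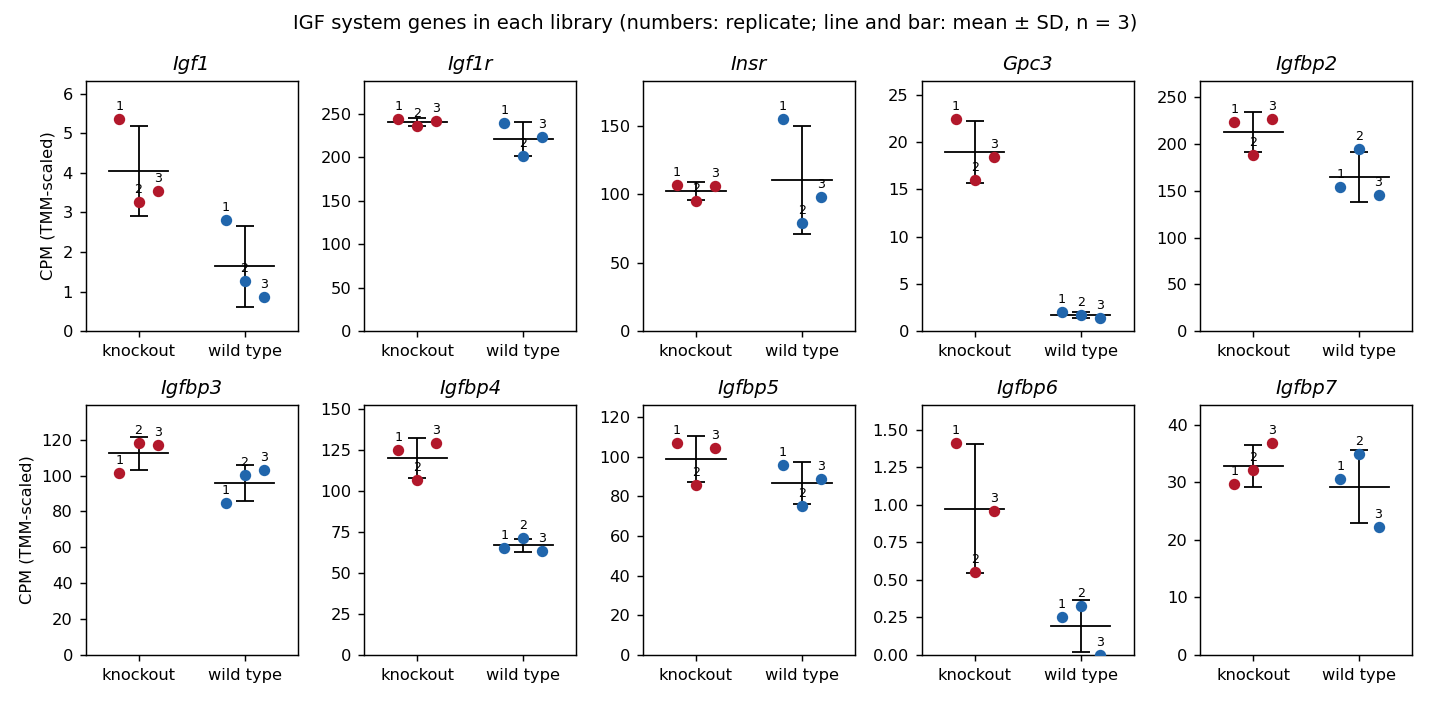
CPM of the 10 IGF system genes in each library, with knockout (red) left of wild type (blue) in every panel, each vertical axis starting at 0, points numbered by replicate, and the mean ± SD (n = 3) in black. Gpc3 lies between 15.9 and 22.4 CPM in knockout and between 1.40 and 1.98 CPM in wild type. The points of Igf1r, Insr, Igfbp2, Igfbp3, Igfbp5 and Igfbp7 overlap between the groups.

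The ligand gene Igf1, whose product is the main IGF of postnatal growth, was scarce in these cortices. It had 368, 207 and 196 deposited counts in knockout libraries 1, 2 and 3, against 167, 74 and 49 in wild-type libraries 1, 2 and 3. Scaled to depth this was 5.36, 3.27 and 3.54 CPM in knockout, against 2.80, 1.28 and 0.855 CPM in wild type, so the groups did not overlap. The highest library of each group was number 1, and the wild-type values spread widely. Igf1 was at a log2 fold change of 1.30 (SE 0.43, 95% interval 0.32 to 2.28), and its adjusted p of 0.114 did not pass. With wild-type library 1 left out the log2 fold change was 1.93 and passed (adjusted p = 0.0198). DESeq2 also called it (adjusted p = 0.0199), so Igf1 is a gene on which the fits differ.

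The receptor genes had many counts in every library and neither passed the threshold, with a wider interval for Insr than for Igf1r. Igf1r, the receptor through which both IGFs signal, had 244, 235 and 241 CPM in knockout libraries, against 240, 201 and 223 CPM in wild-type libraries. The groups overlapped, and the log2 fold change was 0.12 (SE 0.08, 95% interval -0.05 to 0.29, adjusted p = 0.417). The interval leaves room for a rise of up to 1.22-fold and a fall to 0.965 of the wild-type level. Insr, the insulin receptor gene, had 106, 94.7 and 106 CPM in knockout libraries, against 155, 78.9 and 97.6 CPM in wild-type libraries. Wild-type library 1 was the highest of all 6 and made the wild-type spread wide, at an SD of 39.5 CPM. Its log2 fold change was -0.11 (SE 0.26, 95% interval -0.75 to 0.53, adjusted p = 0.858), and it was 0.21 without wild-type library 1 (adjusted p = 0.348), so its direction changed with that library. Per kb of exon, Igf1r stood at 1.93 ± 0.0924 times the level of Insr in knockout and 1.74 ± 0.422 times in wild type (SD, n = 3 each), an overlap between groups.

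Gpc3 changed most. Its gene (ENSMUSG00000055653.13, chromosome X, 52272426 to 52613950, minus strand, mm10) had 1539, 1008 and 1018 deposited counts in knockout libraries 1, 2 and 3, against 118, 99 and 80 in wild-type libraries 1, 2 and 3. These are 22.4, 15.9 and 18.4 CPM in knockout, against 1.98, 1.71 and 1.40 CPM in wild type. Every knockout library was far above every wild-type library, and library 1 was the highest within each group. On the log2 scale Gpc3 rose by 3.48 (SE 0.19, adjusted p = 1.73e-05), a value that ran from 3.34 to 3.60 with any 1 library left out, always past the threshold. Without knockout libraries 2 and 3 it was 3.72 (adjusted p = 0.000303).

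The level of Gpc3 moved with markers of the meninges, the membranes around the brain, though other marker lists were higher in knockout too. The 13 listed markers of meningeal fibroblasts, all of which rose, summed to 763, 561 and 676 CPM in knockout libraries 1, 2 and 3, against 27.6, 26.1 and 20.2 CPM in wild-type libraries 1, 2 and 3. None of the 13 was at 0 in all libraries of a group. In both groups the libraries stood in the same order for Gpc3 as for that sum. The meningeal list had a median log2 fold change of 5.18, above the 3.48 of Gpc3. This median was 3.77 for choroid plexus markers and 1.21 for microglia and macrophages. It was 0.93 for mural cells and 0.66 for endothelium. The share of meningeal or any other listed tissue in the change of Gpc3 was not tested. In bulk tissue, more cells of a type and more RNA per cell cannot be told apart.

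The 3 genes whose pattern over the 6 libraries lay nearest to that of Gpc3 were Gja1, Tgfbr3 and Islr. Likeness was the root mean square difference of log2 CPM after each gene was centred on its own mean, among 13699 genes whose log2 CPM averaged 1 or more. Gja1, a gap junction connexin gene, was at a distance of 0.13, with a log2 fold change of 3.33 (SE 0.26). The TGF-beta co-receptor gene Tgfbr3 was at 0.21 and Islr, which encodes a leucine-rich repeat protein, at 0.22. All 6 libraries enter this measure with the genotype contrast, so genes with a similar fold change are near by construction.

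Gpc4, which lies next to Gpc3 on chromosome X with a gap of 107173 bases, moved far less. It had 65.0, 65.4 and 69.9 CPM in knockout libraries, against 48.8, 48.7 and 58.2 CPM in wild-type libraries. Its rise of 0.36 on the log2 scale (SE 0.09, adjusted p = 0.0412) was called, but the call was lost without any 1 library other than wild-type 3 (highest adjusted p = 0.161). Deposited counts of Gpc3 were 0.284 ± 0.0537 of those of Gpc4 in knockout and 0.0332 ± 0.00841 in wild type (SD, n = 3 each), with no overlap. A two-sided exact permutation test gave p = 0.10, the smallest that 3 against 3 libraries allow, or 0.22 adjusted over 11 such quantities. On the other side of Gpc3, Ccdc160 did not pass (log2 fold change -0.50, SE 0.73, adjusted p = 0.756). Ccdc160 and, given later, Top2a, Tns4 and Igfbp1 were picked by position and not by the naming rule.

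**Figure D2:**
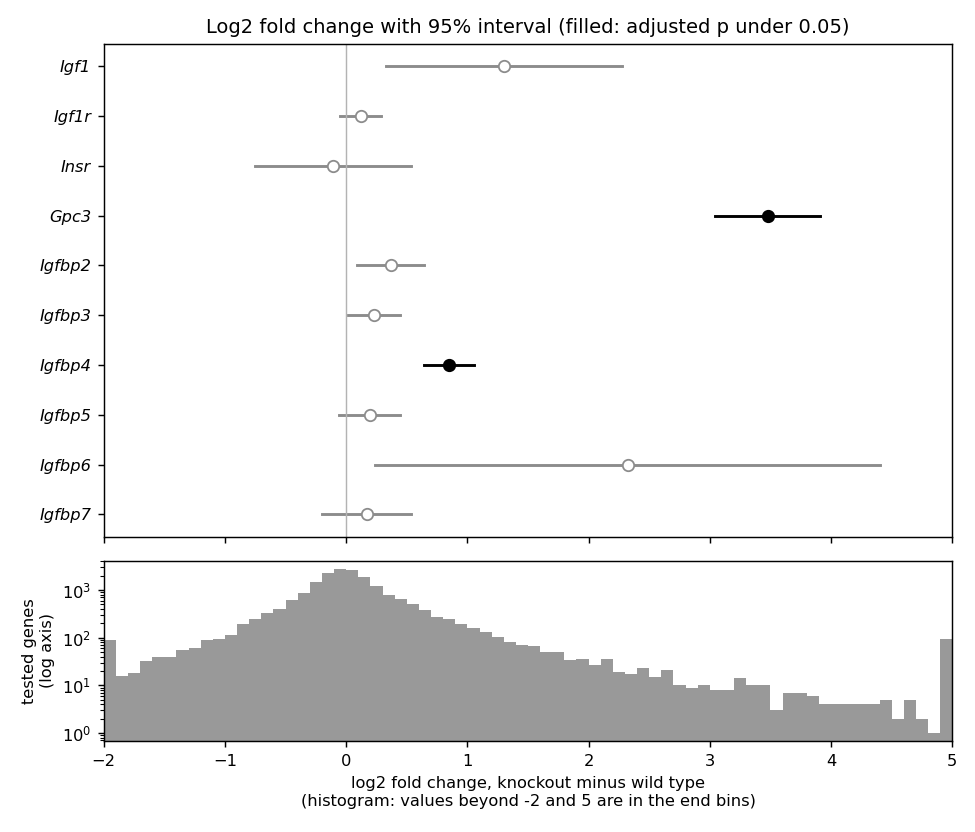
Log2 fold change, knockout minus wild type, of the 10 genes with the 95% interval of each (upper panel, filled points past an adjusted p of 0.05), above a histogram of all 19844 tested genes on a log axis (lower panel). Gpc3 at 3.48 and Igfbp4 at 0.85 are the filled points, and the intervals of Igfbp6 and Igf1 are the widest.

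Among the binding protein genes Igfbp4 rose. The gene (chromosome 11, 99041244 to 99054392, plus strand, mm10) encodes a secreted binding protein that mostly restrains IGF action and is cleaved by the protease PAPP-A. It had 8562, 6727 and 7160 deposited counts in knockout libraries 1, 2 and 3, against 3904, 4135 and 3630 in wild-type libraries 1, 2 and 3. These are 125, 106 and 129 CPM in knockout, against 65.4, 71.3 and 63.4 CPM in wild type, with a wide gap between the groups. On the log2 scale Igfbp4 rose by 0.85 (SE 0.09, adjusted p = 0.000654). It stayed called with any 1 library left out (0.80 to 0.93) and without knockout libraries 2 and 3 (0.90, adjusted p = 0.0128).

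Igfbp4 has Top2a, a topoisomerase gene of dividing cells, as its nearest protein-coding neighbour on the left, with a gap of 17054 bases. Top2a was at 206, 198 and 198 CPM in knockout libraries, against 113, 112 and 152 CPM in wild-type libraries (log2 fold change 0.67, SE 0.12, adjusted p = 0.00959). Tns4, the neighbour on the right, had 10 deposited counts in knockout and 0 in wild type and was too low to test. The patterns nearest to Igfbp4 were those of Rcn3 (distance 0.07, log2 fold change 0.72), the amino acid transporter gene Slc38a3 (0.08, log2 fold change 0.71) and the catenin gene Ctnna1 (0.08, log2 fold change 0.92).

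Markers of several, but not all, listed cell types other than neurons also rose in the knockout group, where Igfbp4 was high. All 13 meningeal fibroblast markers rose, as given above, and so did 2 of 6 tested choroid plexus markers. Within knockout, Igfbp4 and the microglia and macrophage sum were highest in library 3 and lowest in library 2. The endothelial and mural sums were lowest in knockout library 1. In wild type, the endothelial sum had the library order of Igfbp4, and the mural and the microglia and macrophage sums did not. Of 11 endothelial markers 7 rose, and their sum was 464 to 573 CPM in knockout and 282 to 319 CPM in wild type. Of 9 mural cell markers 6 rose, with sums of 250 to 286 CPM in knockout and 144 to 158 CPM in wild type. Of 13 microglia and macrophage markers 11 rose, with sums of 124 to 155 CPM in knockout and 36.2 to 41.7 CPM in wild type. No marker of the endothelial, mural or microglia and macrophage lists was at 0 in all libraries of a group. Of 8 erythroid markers 0 passed the threshold, with sums of 1886 to 2203 CPM in knockout and 1520 to 2106 CPM in wild type. Of 10 radial glia markers 2 rose, with sums of 1617 to 1779 CPM in knockout and 1576 to 1664 CPM in wild type. The sums of these last lists overlapped between groups. The part of any of these cell types in the change of Igfbp4 was not tested.

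**Figure D3:**
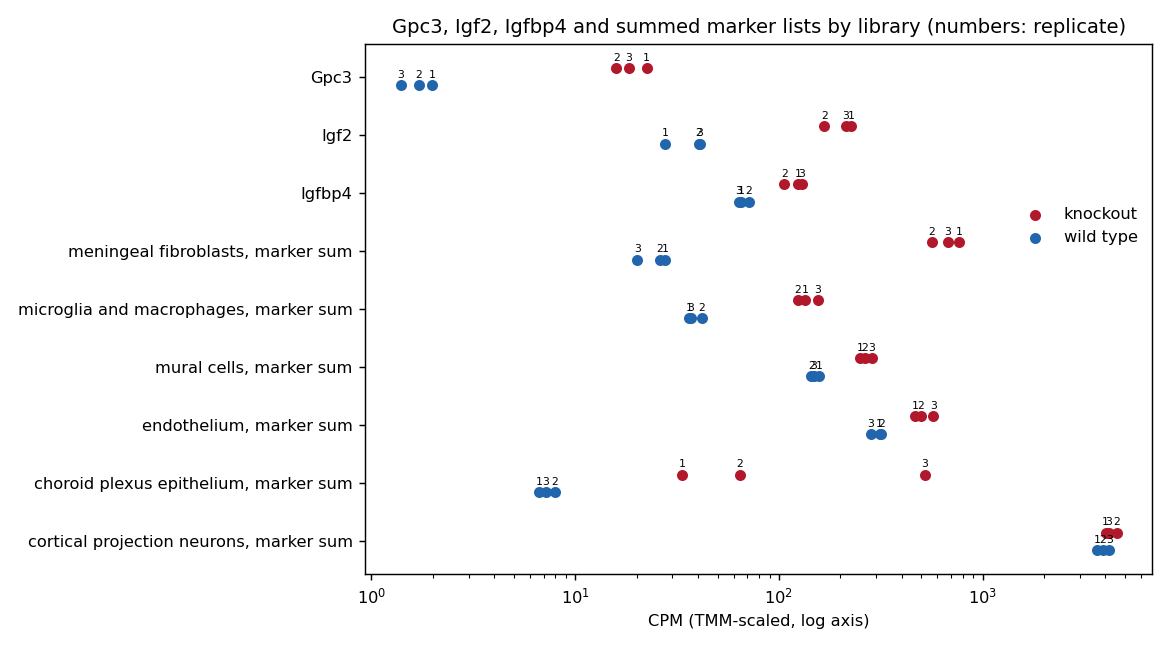
Gpc3, Igf2 and Igfbp4 (top 3 rows, CPM) and the summed CPM of 6 marker lists in each library on a log axis, with knockout (red) above wild type (blue) and points numbered by replicate. The meningeal sum lies at 561 to 763 CPM in knockout and 20.2 to 27.6 CPM in wild type, the choroid plexus sum spreads from 33.4 to 519 CPM among the knockout libraries, and the neuronal sums overlap.

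Igfbp2 and Igfbp5 are neighbours on chromosome 1, arranged tail to tail with 5457 bases between them, and encode binding proteins abundant in the developing brain. Igfbp2 had 223, 188 and 226 CPM in knockout libraries, against 154, 195 and 145 CPM in wild-type libraries. Knockout library 2 fell below wild-type library 2, so the groups overlapped. Its log2 fold change was 0.37 (SE 0.12, 95% interval 0.09 to 0.64, adjusted p = 0.111), which passed without wild-type library 2 (0.50, adjusted p = 0.0274) and in DESeq2 (adjusted p = 0.0491). Igfbp5 had 107, 85.6 and 104 CPM in knockout libraries, against 95.6, 75.0 and 88.9 CPM in wild-type libraries. It overlapped between groups and did not pass (log2 fold change 0.19, SE 0.11, 95% interval -0.06 to 0.45, adjusted p = 0.369).

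Igfbp3, whose product carries most IGF in blood, was also measured with ease and did not pass. It had 102, 118 and 117 CPM in knockout libraries, against 84.6, 100 and 103 CPM in wild-type libraries, which overlap. Its log2 fold change was 0.23 (SE 0.10, 95% interval 0.01 to 0.44, adjusted p = 0.197). Igfbp1, which lies 3539 bases from Igfbp3, had 20 deposited counts in knockout and 27 in wild type and was too low to test.

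Igfbp7, which binds IGFs weakly and is known from vessel walls, did not pass either. It had 29.7, 32.2 and 36.9 CPM in knockout libraries, against 30.6, 34.9 and 22.3 CPM in wild-type libraries. Wild-type library 3 was the lowest, and the rest were intermixed. The log2 fold change was 0.17 (SE 0.16, 95% interval -0.20 to 0.53, adjusted p = 0.614). Of 11 endothelial markers, 7 rose and 4 did not pass in the same fit. The part of vessel cells in the level of Igfbp7 was not tested. The exons of Igfbp7 share 85 bases with Polr2b on the opposite strand. The handling of strand is not given, so reads of that stretch may belong to either gene.

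Igfbp6, a binding protein with a preference for IGF2, was near the limit of detection. It had 97, 35 and 53 deposited counts in knockout libraries, against 15, 19 and 0 in wild-type libraries. A sequenced fragment adds about 4 to a deposited count, so the wild-type sum of 34 stands for about 8.5 fragments. The groups did not overlap, and the log2 fold change was 2.32 (SE 0.91, 95% interval 0.24 to 4.41, adjusted p = 0.178). Knockout library 1 was the highest, as it was for Gpc3 and the meningeal sum. In wild type Igfbp6 was highest in library 2, while Gpc3 and the meningeal sum were highest in library 1. The part of meningeal tissue in the level of Igfbp6 was not tested.

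In all, 4 of the 10 genes had groups that did not overlap (Igf1, Igfbp4, Igfbp6 and Gpc3), against 29.1% of all tested genes. The other 6 had at least 1 knockout library inside the wild-type range.

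**Figure D4:**
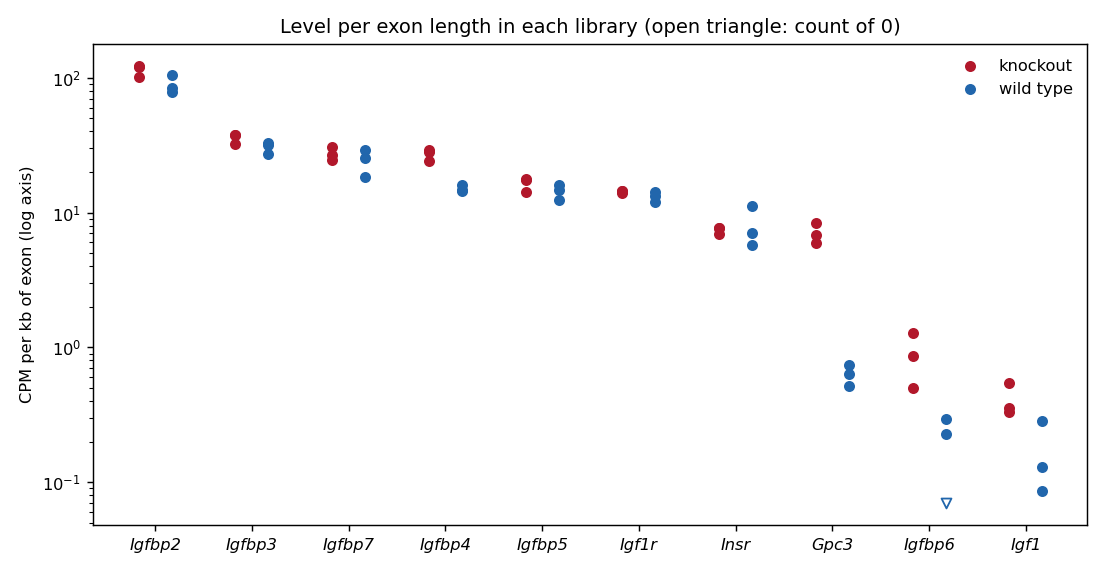
CPM per kb of merged exon length on a log axis for the 10 genes in order of their wild-type mean, each point a library, with knockout (red) left of wild type (blue) and an open triangle drawn at the bottom for a count of 0. Igfbp2 is highest in both groups at 115 and 89.2 CPM per kb, and Gpc3 and Igfbp4 are the genes whose points are most clearly apart among those above 1 CPM per kb in knockout.

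Levels were compared between genes per kb of exon, since longer transcripts give more reads. Among the IGF system genes described here, Igfbp2 had the highest level. It stood at 115 ± 11.6 CPM per kb in knockout and 89.2 ± 14.3 in wild type (SD, n = 3 each). Igfbp3 followed at 35.9 ± 2.95 in knockout and 30.6 ± 3.17 in wild type. In wild type Igfbp7 (24.2 ± 5.30) came next, then Igfbp4 (15.1 ± 0.928) and Igfbp5 (14.4 ± 1.75), and the last 2 did not differ beyond their spread. In knockout Igfbp4 reached 27.2 ± 2.74 and stood level with Igfbp7 at 27.2 ± 3.01. Igf1r (14.3 ± 0.259 in knockout and 13.2 ± 1.16 in wild type) lay close to Igfbp5 in wild type. Gpc3 had 7.03 ± 1.21 CPM per kb in knockout, near Insr at 7.44 ± 0.474, and 0.629 ± 0.108 in wild type, where Insr had 8.03 ± 2.87. Igfbp6 and Igf1 were lowest, at 0.876 ± 0.386 and 0.409 ± 0.115 in knockout and 0.173 ± 0.154 and 0.166 ± 0.103 in wild type.

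The summed level of the binding proteins and the share of each were compared per library, and none of these passed a test. Summed over the 6 genes, the level was 225, 205 and 238 CPM per kb in knockout libraries, against 167, 195 and 159 in wild-type libraries, without overlap. Igfbp2 made up 51.6% ± 2.02 of that sum in knockout and 51.2% ± 2.50 in wild type (SD, n = 3 each). Igfbp4 made up 12.5%, 11.8% and 12.3% in knockout libraries, against 8.89%, 8.26% and 9.01% in wild-type libraries. The shares of Igfbp4 did not overlap, and the difference was 3.47 percentage points. For the sum and for the share of Igfbp4 the two-sided exact permutation p was 0.10, the smallest that 3 against 3 libraries allow, and 0.22 when adjusted over the 11 quantities. Igfbp6 made up 0.564%, 0.243% and 0.361% in knockout libraries, against 0.136%, 0.151% and 0% in wild-type libraries, which did not overlap and gave the same p of 0.10 in the exact permutation test (0.22 adjusted). The shares of Igfbp2, Igfbp3, Igfbp5 and Igfbp7 overlapped between groups.

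Igf2, the main IGF ligand of the embryo and an imprinted gene, rose. It had 225, 167 and 213 CPM in knockout libraries, against 27.7, 40.3 and 40.8 CPM in wild-type libraries (log2 fold change 2.47, SE 0.18, adjusted p = 0.000542), and kept its call with any 1 library left out. Its exons share 3596 bases with Gm49394 on the same strand and 98 with Igf2os on the opposite one, so its counts are less certain. Within the knockout group Igf2 was highest in library 1 and lowest in library 2, the order of the meningeal sum, which was not the order in wild type. Per kb, Igf2 stood at 72.7, 88.3 and 104 times the level of Igf1 in knockout libraries, against 17.2, 54.7 and 82.5 times in wild-type libraries, which overlap. Igf2r, the clearance receptor for IGF2, was at 101 ± 1.96 CPM in knockout and 86.0 ± 6.72 CPM in wild type (SD, n = 3 each) and did not pass (log2 fold change 0.24, SE 0.08, adjusted p = 0.0999).

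Of 54 further genes of the IGF pathway 49 were tested, and edgeR gave 11 higher (22.4%) and 0 lower. Over all tested genes these shares were 5.21% and 2.53%. The pathway lists were also chosen with earlier results of these data known, so these shares do not test the pathway as a set. The median log2 fold change of the 49 was 0.08, beside 0.002 over all tested genes. At an unadjusted p under 0.05 14 of the 49 were higher and 5 lower, against 22.2% of all tested genes in either direction. DESeq2 gave 12 of the pathway genes higher and 2 lower, where it called 7.89% of all genes higher and 4.97% lower. Leaving out any 1 library other than wild-type 3 left 5 or 6 higher, and without knockout libraries 2 and 3 Igf2 and Grb10 were the 2 that passed. The ligand and receptor list, with Igf2, had 1 of 3 tested genes higher, and both insulin genes had 0 counts in all 6 libraries. Neither the binding protein Igfbpl1 (log2 fold change 0.01, SE 0.07, adjusted p = 0.97), the only tested gene of its list, nor any of the 5 IGFBP proteases and their inhibitors passed. Of the 5 other glypicans Gpc4 and Gpc6 rose. Gpc6 had a log2 fold change of 0.74 (SE 0.14, adjusted p = 0.0142), a call lost without knockout library 1 or 3 or wild-type library 2 (highest adjusted p = 0.0651).

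The Igf2 mRNA-binding proteins, which are fetal RNA-binding proteins that control translation and stability of messages, had 2 of 3 genes higher. Igf2bp2 had 39.6, 55.8 and 38.5 CPM in knockout libraries, against 27.1, 24.2 and 22.8 CPM in wild-type libraries (log2 fold change 0.85, SE 0.15, adjusted p = 0.00988), a call lost without wild-type library 2 (adjusted p = 0.0555). Igf2bp3 was at 0.45 (SE 0.10, adjusted p = 0.0246), a call lost without any 1 library other than wild-type 3 (highest adjusted p = 0.101). Its exons share 1529 bases with Malsu1 on the opposite strand, so its counts are less certain. Igf2bp1 was at 0.40 and narrowly missed the threshold (adjusted p = 0.051).

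Inside the cell, 6 of 32 tested signalling genes rose and 0 fell, where 5.21% of all tested genes were higher and 2.53% lower. Grb10, an imprinted gene whose adaptor protein binds and restrains the insulin and IGF1 receptors, had 177, 163 and 168 CPM in knockout libraries, against 68.0, 62.1 and 69.0 CPM in wild-type libraries. Every knockout library was above 2 times the highest wild-type value, and Grb10 rose by 1.35 on the log2 scale (SE 0.07, adjusted p = 1.65e-05). Shc1, the adaptor that links receptors to the Ras pathway, had a log2 fold change of 1.02 (SE 0.12, adjusted p = 0.00118). Foxo1, a transcription factor restrained by AKT, was at 0.50 (SE 0.13, adjusted p = 0.0437) and lost its call without any 1 of the 6 libraries (highest adjusted p = 0.1535). Its exons share 674 bases with Gm20402 on the opposite strand. Pik3r3, a regulatory subunit gene of PI3 kinase, was at 0.45 (SE 0.07, adjusted p = 0.00479). Its exons share 1289 bases with Gm49337 on the same strand. Grb10, Shc1 and Pik3r3 kept their calls with any 1 library left out. Of the 26 that did not pass, 5 were lower at an unadjusted p under 0.05. They were Grb14 at a log2 fold change of -0.58 (adjusted p = 0.0572), Pik3r1 at -0.25 (adjusted p = 0.0621), and Pik3r2, Irs2 and Grb2 at -0.19, -0.19 and -0.13 (adjusted p of 0.222, 0.183 and 0.221). In DESeq2 Grb14 and Pik3r1 were called lower. In these same libraries the meningeal sum was 561 to 763 CPM in knockout and 20.2 to 27.6 CPM in wild type, and its part in these rises was not tested.

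**Figure D5:**
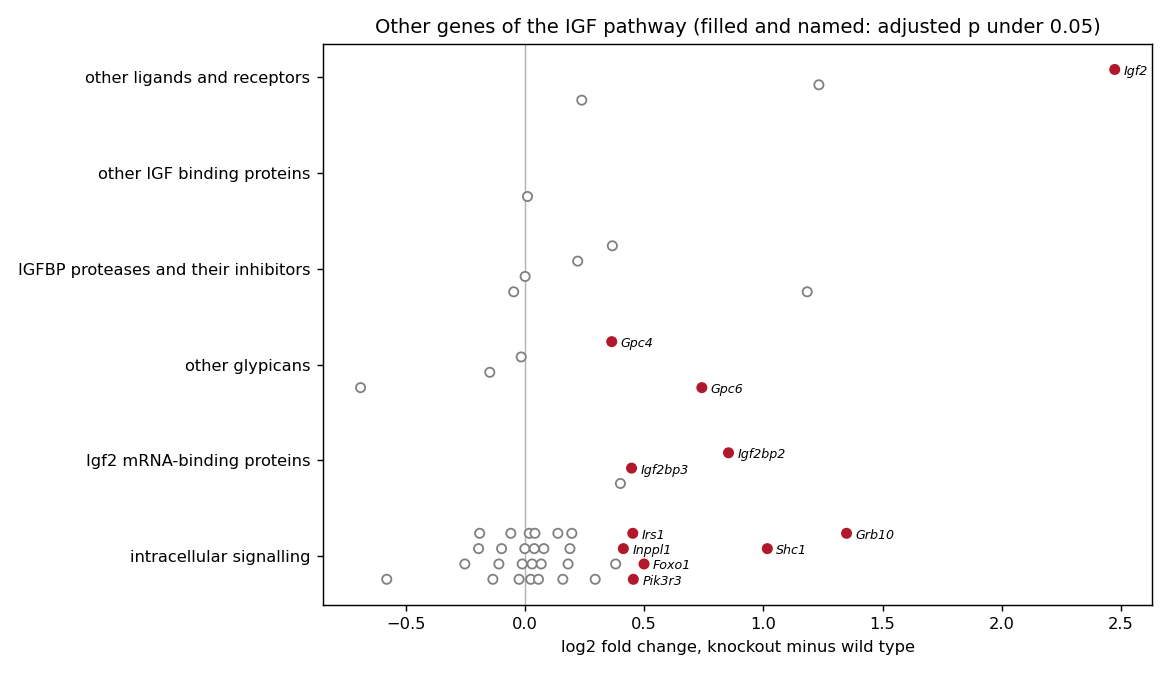
Log2 fold change, knockout minus wild type, of the 49 tested genes of the IGF pathway beyond the 10, in 6 rows by role, with genes past an adjusted p of 0.05 filled and named. The 11 filled genes all lie to the right of 0, with Igf2 at 2.47 farthest out and Grb10 at 1.35 next.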

How the data were processed

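Bulk RNA was sequenced from 6 cortex samples. Per the submitters' processing notes, the tools used include HISAT2 2.0.5 and StringTie 1.3.4 beside Trim Galore 0.4.4 and FastQC 0.11.9, and the build was mm10. Not given in the sources used here are the counting program, the annotation release and the handling of strand. The deposited table holds whole numbers, taken here as estimated counts, since low values pile up at multiples of about 4 (in wild-type library 1, 1298 genes had a count of 4, against 492 with 3 and 318 with 5). They were already whole and needed no rounding. Counting intervals would cover counting error only.

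Identifiers were matched to GENCODE M21, also on mm10: 55141 of 55401 rows received a name, and the unnamed rest took no more than 0.0238% of any library. These stayed in the table. After filterByExpr and TMM scaling, groups were compared in edgeR 4.0.16 (quasi-likelihood F-test, robust, R 4.3.3), with Benjamini-Hochberg adjustment over all 19844 tested genes and a threshold of 0.05. SE was obtained from the log2 fold change and F (its size over the root of F), and 95% intervals use the test's degrees of freedom and are not adjusted for many genes. Exon length is the merged length of all annotated exons.

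The 10 genes, the pathway and marker lists and the tests were chosen with earlier results of these data known. Named beyond the 10 are Csmd3, Igf2, Igf2r, up to 4 called genes per pathway list by fold change, and the 3 nearest patterns of each called gene among the 10. Outside that rule, genes next to Gpc3, Igfbp3 and Igfbp4 were named by position, and Igfbpl1, Igf2bp1, Grb14, Pik3r1, Pik3r2, Irs2 and Grb2 after their values were seen. Also run were DESeq2 1.42.0, voom of limma 3.58.1 with sample weights, scaling by RLE or by the upper quartile, other filters, counts divided by 4, a fit that was not robust, the replicate number as a block, and libraries left out.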

Additional observations from a re-analysis of the deposited data

How the results depend on the processing

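Gpc3 and Igfbp4 kept their direction and their call in all 16 alternative fits, with log2 fold changes of 3.34 to 3.72 and 0.80 to 0.93. Among the 10 genes 2 were higher in the main fit, 4 in DESeq2 (with Igf1 and Igfbp2) and 3 with the replicate block (with Igf1, adjusted p = 0.0409). Insr was at -0.11, turned to 0.21 without wild-type library 1, and ran from -0.30 to 0.21 with 1 library left out. Igfbp6 was not tested under the filter of CPM at least 1 in 3 libraries. It rests on few fragments and its interval is wide.

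Counts over all genes moved more. The main fit gave 1033 higher and 503 lower, DESeq2 1473 and 928, the replicate block 686 and 255, and the fit without knockout libraries 2 and 3, which assumes that the lone knockout library varied like the others, 243 and 41. With 1 library left out the ranges were 486 to 1439 higher and 145 to 1001 lower. For the other pathway genes the 11 higher became 7 with the replicate block, 2 without knockout libraries 2 and 3 (Igf2 and Grb10), and 5 to 11 with 1 library left out. The 0 lower became 2 in DESeq2 and limma-voom, 1 without a filter and with counts divided by 4, and 0 to 3 with 1 library left out. Csmd3 was at -0.58 with the replicate block (adjusted p = 0.0664) and -0.61 without knockout libraries 2 and 3 (adjusted p = 0.349), neither past the threshold, and at -0.67 to -0.50 with 1 library left out. Pairing by replicate number was not evident: deviations of same-numbered libraries correlated at 0.0283, -0.00263 and 0.00163 over 19844 genes. Knockout libraries 1 and 3 correlated best with the wild-type library of their own number, and knockout library 2 with wild-type library 3. Every pair of a knockout and a wild-type library lay near 0, between -0.0310 and 0.0287. The cause of these shifts was not tested.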
